A study of Mus musculus with 4 samples.

Results

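Lysine deacetylases and the corepressor complexes that carry them were followed through an expression array study of mouse dendritic cells given SAHA. The 42 genes were taken by name, as 11 histone deacetylases (HDACs), 7 sirtuins and 24 subunits of the SIN3, NuRD, CoREST and NCoR complexes. Of these, 40 were measured among 18194 genes, each represented by its brightest probe set, and Sap18 and Ncor1 were not analysed here. Bone marrow of C57BL/6 mice, from 3 or more animals per experiment, was kept for 7 days in GM-CSF and IL-4 at 10 ng/ml each, and CD11c-positive cells were then taken magnetically to a stated purity of 95%. The 2 SAHA arrays came from cells exposed for 12 hours at a dose written as 500 nm, and the 2 control arrays from cells given diluent for as long. The cells were thus a marrow culture driven by cytokines, a mixed population selected on 1 surface protein. The arrays of a group are labelled biological replicates, with no word on whether each had its own pool of marrow, so the p-values cover only how these arrays vary.

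Lysine deacetylases remove acetyl groups from histone tails and from other proteins. HDACs of classes I, II and IV hold a zinc ion in the active site. SAHA (vorinostat), a hydroxamic acid, acts by binding such zinc. Which of these enzymes it reached at the dose used was not measured. Sirtuins, the class III enzymes, use NAD+ in place of zinc and are not targets of SAHA. HDAC1 and HDAC2 act inside the SIN3, NuRD and CoREST complexes and HDAC3 inside NCoR, which DNA-binding repressors bring to their target genes.

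Values are deposited log2 values of a probe set, so a difference of 1 is a doubling, and probe sets of different genes hybridise differently, so their levels are not ranked against each other. Each of 9 dendritic cell markers lay above the array's median in all 4 arrays, with control means from 7.29 for Flt3 to 14.28 for H2-Aa. None of 9 dendritic cell markers, among them Itgax, which encodes CD11c, passed the test, and their summed level was 16.32 to 16.38 log2 units in SAHA-treated cells and 16.37 to 16.38 in control cells. The lowest log2 change among these 9 was -0.49 for Ccr7 (limma adjusted p = 0.118), and 4 were above 0 and 5 below. Neutrophil markers did move with the treatment. Of 8 measured, 5 passed as lower and 1, Prtn3, as higher, none was under the 25th percentile in all 4 arrays, and their summed level was 10.91 to 10.99 in SAHA-treated cells and 11.55 to 11.62 in control cells. The count of lower neutrophil markers was 0 with low values set to a floor, and it was 0 when SAHA replicate 1 was left out, 2 when SAHA replicate 2 was, and 3 when control replicate 2 was. With the floor no gene of the array passed. None of 6 macrophage, 5 B cell, 4 T and NK cell, 5 mast cell and basophil, 2 erythroid or 3 eosinophil markers passed. The macrophage marker Mertk came nearest, with a log2 change of -0.92 (limma adjusted p = 0.0509), and the eosinophil marker Prg2 was at -0.99 (0.124). Of the macrophage markers 1 was above 0 and 5 below, and of the eosinophil markers 1 and 2. The macrophage markers gave clear signals too, with control means from 10.02 for Mertk to 13.88 for Csf1r. Their summed level was 15.04 to 15.26 in SAHA-treated cells and 15.16 to 15.31 in control cells. The part of neutrophil RNA in the results on the deacetylase genes was not tested, and in such bulk samples fewer cells of a type and less RNA per cell cannot be told apart.

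Nearly every deacetylase and corepressor gene gave a signal well inside the array's range, and its level in SAHA-treated cells was within a factor of 2 of that in control cells. All 4 values lay above their array's median value for 39 of the 40 genes, the exception being Hdac9, and no gene had a value under the 25th percentile of an array. Sirt3, the main deacetylase of the mitochondrial matrix, was the only one of the 40 genes to pass the test and was higher in SAHA-treated cells (limma, Benjamini-Hochberg adjusted p under 0.05 over 18194 genes). No gene passed as lower. That is 2.5% of the 40 genes, against 2.23% of all genes in either direction, 1.52% higher and 0.709% lower, so the share called was near the background. The 95% confidence interval of the log2 change lay within 1 of 0 for 36 of the 40 genes, against 89.2% of all genes. The 4 exceptions were Sirt3, Sirt1, Mbd3 and Rcor1. For 5 genes the interval lay on 1 side of 0, which is 12.5% of the 40, against 18.1% of all genes. These were Sirt3, Chd4 and Kdm1a on the higher side and Sirt1 and Mbd3 on the lower.

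The small changes leaned to the higher side. The median log2 change of the 40 genes was 0.16, with 28 above 0 and 12 below, whereas that of all genes was -0.048, with 7502 above 0 and 10692 below. Both SAHA arrays lay above both control arrays for 24 genes (60.0%), against 21.1% of all genes and 31.2% of genes with a mean above the median of genes. They lay below both control arrays for 5 genes (12.5%), against 29.6% of all genes and 25.9% of those above the median, and the groups overlapped for the other 11. Of the 40 genes, 37 had a mean above the median of genes, and their median change was 0.22, beside 0.030 for all 9097 genes above it. The 75th percentile of the arrays was 7.93 and 7.86 in SAHA and 7.86 and 7.74 in control. After quantile normalization the median change of the 40 genes was 0.12, beside -0.040 for all genes. For a single gene, the smallest two-sided p that exact permutation of these 4 arrays can give is 0.333.

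**Figure D1:**
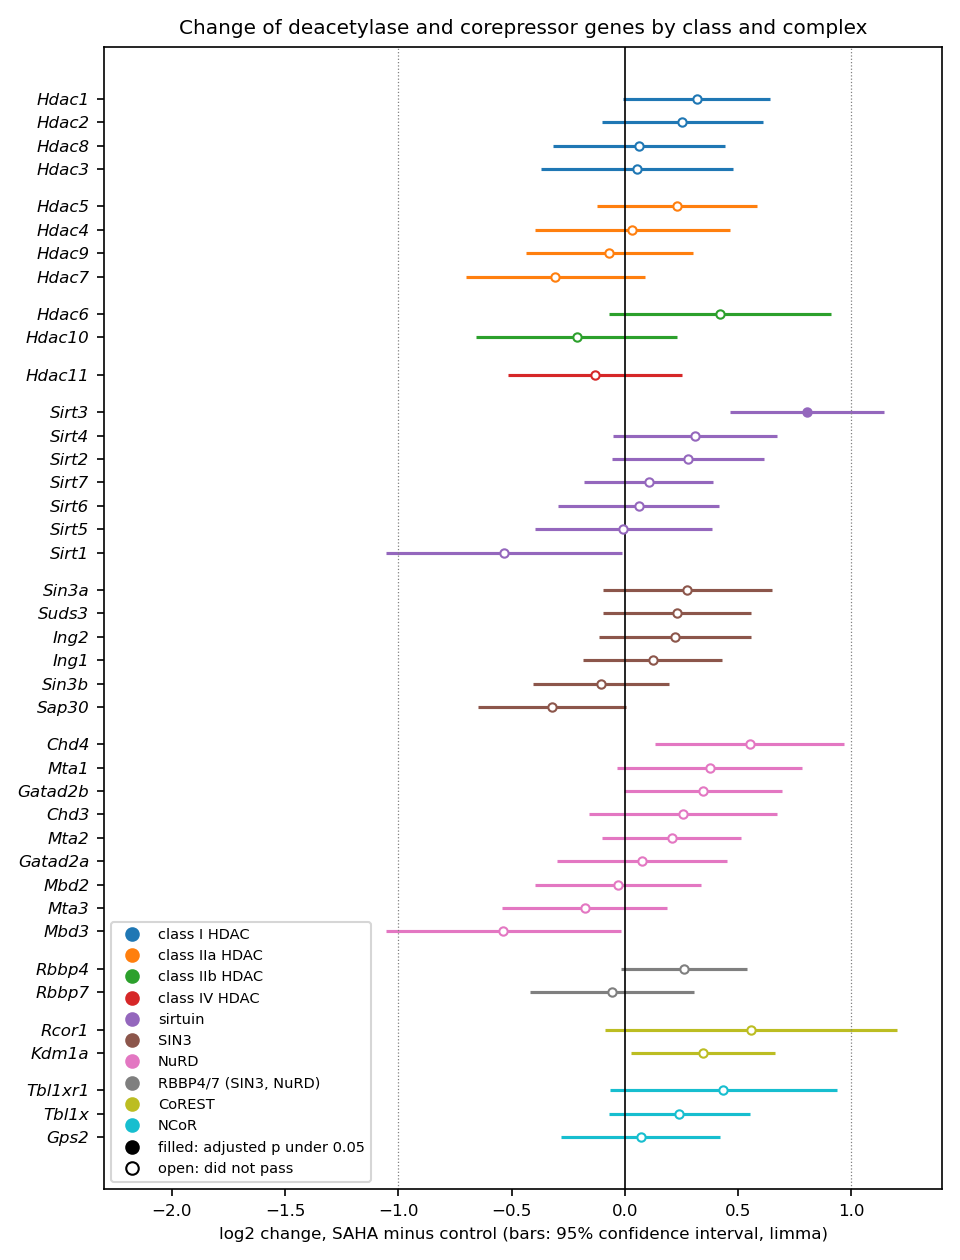
Log2 change of the 40 genes, SAHA minus control, with 95% confidence intervals from limma, grouped by deacetylase class or complex, dotted lines marking a change of 1 either way. Sirt3 at 0.80 is the 1 filled point, and most other points sit between -0.3 and 0.45.

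Sirt3 gave 8.73 and 8.77 log2 units in SAHA-treated cells, against 7.96 and 7.93 in control cells. The groups were far apart for the spread within them, with a gap many times wider than the distance between arrays of 1 group. Sirt3 rose 1.75-fold, with a log2 change of 0.80 ± 0.14 (SE, n = 2 per group, interval 0.46 to 1.15, limma adjusted p = 0.0474). The call was close to the threshold, while the size was stable. It was lost after quantile normalization (change 0.74, adjusted p = 0.0640), with low values set to a floor (0.158), with every probe set of the array fitted on its own (0.0972) and without any 1 of the arrays (change 0.78 to 0.83, adjusted p 0.0727 to 0.278). With the floor no gene of the array passed, and the change of Sirt3 was the same 0.80. The call was kept without the intensity trend (limma adjusted p = 0.0370) and with robust spread (0.0405). It was also kept among genes above the median level (0.0467) and with probe sets averaged (0.0473). With replicate number as a block, a fit not used for calls, it was 0.000623. Sirt3 was read by 1 probe set.

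RefSeq gives Sirt3 a pair of transcription starts on chromosome 7, and the window of the upstream one is shown because it overlaps that of Psmd13, a proteasome lid gene read in the opposite direction. Each window runs from 250 bases before a start to 50 after it in GRCm38.p6, 5′ to 3′ on the gene's strand. The upstream Sirt3 window is chr7:140882260-140882559 on the minus strand, the Psmd13 window is chr7:140882144-140882443 on the plus strand, and the capitals mark the 184 shared bases. The second Sirt3 window, chr7:140881820-140882119, and those of Sirt1 (chr10:63338986-63339285, minus strand) and Mbd3 (chr10:80399482-80399781, minus strand) are shown for contrast, Sirt1 and Mbd3 being the genes with the lowest changes. In these 3 the capitals mark every GC box, searched as GGGCGG or its complement CCGCCC, and every CCAAT box, searched as CCAAT or ATTGG.

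Sirt3 upstream window: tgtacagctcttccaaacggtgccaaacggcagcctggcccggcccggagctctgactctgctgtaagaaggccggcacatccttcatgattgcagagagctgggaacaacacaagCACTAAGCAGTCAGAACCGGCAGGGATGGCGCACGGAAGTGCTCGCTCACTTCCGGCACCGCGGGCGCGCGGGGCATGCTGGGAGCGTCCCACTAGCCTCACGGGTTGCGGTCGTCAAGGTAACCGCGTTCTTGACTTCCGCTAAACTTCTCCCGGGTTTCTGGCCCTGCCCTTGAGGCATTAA
Sirt3 second window: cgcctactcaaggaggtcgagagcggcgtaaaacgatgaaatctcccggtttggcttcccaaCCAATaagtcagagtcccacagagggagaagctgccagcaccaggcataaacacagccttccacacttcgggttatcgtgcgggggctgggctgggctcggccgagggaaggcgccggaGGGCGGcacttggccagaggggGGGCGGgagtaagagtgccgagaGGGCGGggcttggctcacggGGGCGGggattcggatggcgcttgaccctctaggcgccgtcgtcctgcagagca
Sirt1 window: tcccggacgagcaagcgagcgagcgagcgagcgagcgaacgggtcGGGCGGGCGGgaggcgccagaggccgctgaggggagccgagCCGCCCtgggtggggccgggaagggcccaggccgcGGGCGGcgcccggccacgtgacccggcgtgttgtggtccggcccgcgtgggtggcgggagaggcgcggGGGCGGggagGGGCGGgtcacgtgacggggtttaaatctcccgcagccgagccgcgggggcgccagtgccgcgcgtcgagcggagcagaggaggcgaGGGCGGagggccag
Mbd3 window: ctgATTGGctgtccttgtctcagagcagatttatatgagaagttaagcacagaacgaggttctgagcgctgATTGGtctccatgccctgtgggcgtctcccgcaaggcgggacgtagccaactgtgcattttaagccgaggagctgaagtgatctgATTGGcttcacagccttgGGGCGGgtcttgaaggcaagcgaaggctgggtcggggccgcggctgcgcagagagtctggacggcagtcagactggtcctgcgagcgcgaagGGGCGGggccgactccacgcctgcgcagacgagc

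The upstream Sirt3 window held no GC box and no CCAAT box, and the second held 4 GC boxes and 1 CCAAT box. The Sirt1 window held 7 GC boxes, some overlapping, and no CCAAT box. The Mbd3 window held 2 GC boxes and 3 CCAAT boxes. Over the 48 windows of 34 of the measured genes, 37 (77.1%) held a GC box, against 35.7% of 32851 windows of all genes, noncoding ones included, and 25 (52.1%) held a CCAAT box, against 37.4%. These shares count windows and not genes, and the windows of all genes were not matched to the measured genes by expression. Some genes gave several windows, and some windows of Ing1 and of Chd4 overlap one another. Psmd13, looked up after the values of Sirt3 were seen, gave 10.23 and 10.06 in SAHA-treated cells, against 9.82 and 9.85 in control cells. Its log2 change in the probe set used was 0.31 ± 0.14 (SE, limma adjusted p = 0.305), below that of Sirt3 and short of the threshold. The further Psmd13 probe sets gave 0.23, 0.96 and -0.35, so the order of the genes depends on the probe set. The difference between the genes was not tested.

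**Figure D2:**
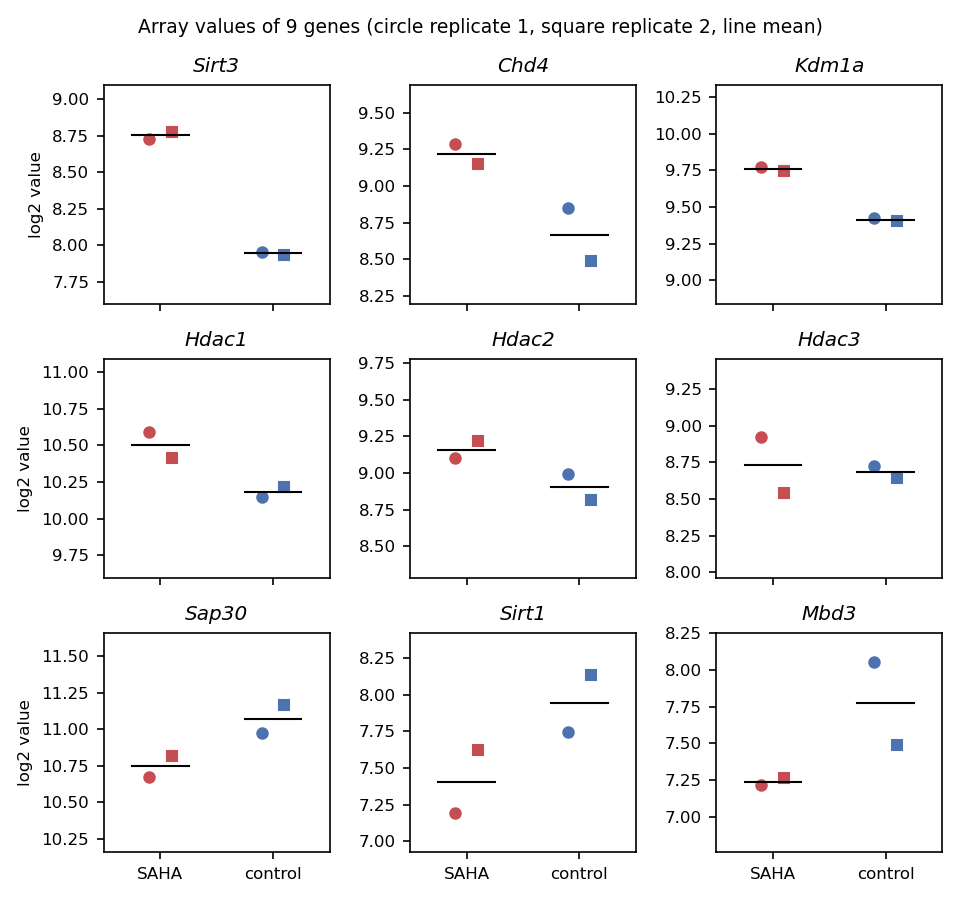
Deposited log2 values in each array for 9 genes, SAHA left of control, each panel spanning 1.5 log2 units, with circles for replicate 1, squares for replicate 2 and a line at the mean. Sirt3 and Kdm1a have tight, separate groups, and Hdac3 overlaps. Sirt1 and Mbd3 are lower in SAHA, with arrays that lie far apart in both groups for Sirt1 and in control for Mbd3.

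Among the zinc-dependent deacetylases none of 11 genes passed, where 2.23% of all genes did. None had an interval on 1 side of 0, against 18.1% of all genes. Hdac1 gave 10.59 and 10.41 in SAHA-treated cells, against 10.15 and 10.22 in control cells, and Hdac2 gave 9.10 and 9.22 in SAHA-treated cells, against 8.99 and 8.82 in control cells. Both were higher in each SAHA array than in either control array, with log2 changes of 0.32 (interval -0.0067 to 0.64, adjusted p = 0.284) and 0.25 (-0.10 to 0.61, 0.421). Hdac3, the catalytic subunit of NCoR, gave 8.93 and 8.54 in SAHA-treated cells and 8.72 and 8.64 in control cells. Its groups overlapped and its change was 0.053 (interval -0.37 to 0.48). Hdac8, a class I enzyme that acts on cohesin and outside these complexes, overlapped too, at 5.37 and 5.63 in SAHA-treated cells and 5.50 and 5.38 in control cells (0.062, -0.32 to 0.44).

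Class IIa enzymes, which shuttle between cytoplasm and nucleus and bind MEF2 factors, differed in sign. Hdac5 gave 9.27 and 9.10 in SAHA-treated cells, against 8.91 and 8.998 in control cells, a change of 0.23 (interval -0.12 to 0.58, adjusted p = 0.459). Hdac7 gave 6.89 and 6.65 in SAHA-treated cells, against 7.02 and 7.14 in control cells, a change of -0.31 (-0.70 to 0.089, 0.387). It was the 1 HDAC gene of 11 with both SAHA arrays below both control arrays, and its second probe set gave -0.30. Of all genes 29.6% were lower in this way, and of genes above the median level 25.9%. Hdac4 (7.62 and 7.43 in SAHA-treated and 7.65 and 7.33 in control cells) and Hdac9 (4.36 and 4.59 in SAHA-treated and 4.40 and 4.69 in control cells) overlapped, with changes of 0.032 and -0.068. In class IIb, Hdac6, the tubulin deacetylase of the cytoplasm, gave 8.68 and 8.23 in SAHA-treated cells, against 8.17 and 7.90 in control cells. Its change was 0.42 (interval -0.069 to 0.91, adjusted p = 0.343), though the lower SAHA array was only just above the higher control array, and leaving out 1 array gave 0.20 to 0.64. Hdac10, a polyamine deacetylase, overlapped at 5.44 and 5.83 in SAHA-treated and 5.94 and 5.77 in control cells (-0.21). Hdac11, the class IV enzyme, known as a regulator of Il10 in antigen-presenting cells, did so at 6.51 and 6.60 in SAHA-treated and 6.58 and 6.79 in control cells (-0.13). The median change of the 11 HDAC genes was 0.053, with 7 above 0 and 4 below. All 11 intervals lay within 1 of 0, against 89.2% of all genes. Higher without overlap were 4 of the 11, against 21.1% of all genes and 31.2% of genes above the median level.

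The sirtuins held both the highest and one of the lowest changes. Sirt1, a nuclear enzyme that deacetylates p53 and the p65 subunit of NF-kB, gave 7.19 and 7.62 in SAHA-treated cells, against 7.75 and 8.13 in control cells. Both SAHA arrays lay below both control arrays, and in each group replicate 2 was above replicate 1 by somewhat less than the distance between the group means. The change was -0.53 ± 0.22 (SE, interval -1.05 to -0.013, adjusted p = 0.267). Of the other mitochondrial sirtuins, Sirt4 gave 7.43 and 7.31 in SAHA-treated cells, against 7.03 and 7.09 in control cells (0.31, adjusted p = 0.347), and the desuccinylase Sirt5 overlapped at 6.87 and 7.12 in SAHA-treated and 7.01 and 6.99 in control cells (-0.0068). Sirt2, which acts mostly in the cytoplasm, gave 11.20 and 10.98 in SAHA-treated cells, against 10.89 and 10.74 in control cells (0.28, adjusted p = 0.359). The chromatin-bound Sirt6 and the nucleolar Sirt7 were higher in both SAHA arrays by narrow margins, with changes of 0.061 and 0.11. Sirt7 gave 11.003 and 11.02 in SAHA-treated cells, against 10.92 and 10.89 in control cells. Of 7 sirtuin genes 5 had non-overlapping higher values, against 21.1% of all genes and 31.2% of genes above the median level, and 1 lower ones, against 29.6% and 25.9%. Their median was 0.11, and the difference between Sirt3 and the rest was not tested.

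No SIN3 subunit passed among 6 measured, with a median of 0.17. The scaffold Sin3a gave 9.004 and 8.996 in SAHA-treated cells, against 8.86 and 8.60 in control cells, a change of 0.27 (interval -0.099 to 0.65, adjusted p = 0.409). Its paralog Sin3b overlapped, at 11.28 and 11.13 in SAHA-treated and 11.27 and 11.35 in control cells (-0.11). Sap30, a small subunit that helps to hold the deacetylase on the scaffold, went the other way from most of the complex, at 10.68 and 10.82 in SAHA-treated cells, against 10.98 and 11.16 in control cells. Its change was -0.32 ± 0.14 (SE, adjusted p = 0.280), without overlap between the groups. Suds3, which aids assembly of the complex (0.23), and Ing1 and Ing2, which read methylated histone tails (0.12 and 0.22), were higher in both SAHA arrays. Ing2 gave 8.65 and 8.63 in SAHA-treated cells, against 8.42 and 8.41 in control cells, among the tightest pairs of the 40 genes, and its adjusted p was 0.460.

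NuRD joins a nucleosome remodelling ATPase to the deacetylase, and its 9 subunit genes had a median change of 0.21 with none past the threshold. The ATPase gene Chd4 gave 9.29 and 9.15 in SAHA-treated cells, against 8.85 and 8.49 in control cells. The groups did not overlap and the change was 0.55 ± 0.17 (SE, interval 0.13 to 0.97, adjusted p = 0.174), with 0.68 and 0.26 in its further probe sets. The other ATPase gene, Chd3, gave 8.01 and 7.97 in SAHA-treated cells, against 7.90 and 7.56 in control cells (0.26, adjusted p = 0.481), and leaving out 1 array gave 0.088 to 0.43.

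Mbd3, a core NuRD subunit that in mammals does not bind methylated DNA as its paralog Mbd2 does, had the lowest change of the 40 genes. It gave 7.21 and 7.26 in SAHA-treated cells, against 8.06 and 7.49 in control cells, a change of -0.54 ± 0.21 (SE, interval -1.05 to -0.019, adjusted p = 0.262). The control arrays lay farther apart than the lower of them lay from SAHA, and without control replicate 1 the change was -0.25, and it was -0.82 without control replicate 2. Mbd2 overlapped at 10.77 and 10.94 in SAHA-treated and 10.74 and 11.03 in control cells (-0.031). The MTA scaffolds split, with Mta1 at 8.79 and 8.53 in SAHA-treated cells, against 8.39 and 8.18 in control cells (0.37), and Mta3 at 8.68 and 8.78 in SAHA-treated cells, against 9.01 and 8.81 in control cells (-0.18). Mta2 was higher by 0.21, with nearly equal values within each group. Of the linker subunits, Gatad2b gave 9.14 and 9.24 in SAHA-treated cells, against 8.92 and 8.77 in control cells (0.34, adjusted p = 0.281), while Gatad2a overlapped (0.075). With probe sets averaged the change of Gatad2b was 0.14 and that of Gatad2a 0.31. Of the histone-binding subunits that NuRD shares with SIN3, Rbbp4 gave 11.92 and 11.89 in SAHA-treated cells, against 11.71 and 11.59 in control cells (0.26, adjusted p = 0.306), and Rbbp7 overlapped at 11.33 and 11.11 in SAHA-treated and 11.41 and 11.14 in control cells (-0.056). Counted with Hdac1, Hdac2, Rbbp4 and Rbbp7, 8 of 13 NuRD genes were higher without overlap and 2 lower, and 7 of 10 SIN3 genes were higher and 1 lower. All genes had 21.1% higher and 29.6% lower in this way, and genes above the median level 31.2% and 25.9%.

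In CoREST the scaffold Rcor1 ties HDAC1 and HDAC2 to Kdm1a, a histone lysine demethylase. Kdm1a gave 9.77 and 9.75 in SAHA-treated cells, against 9.42 and 9.40 in control cells. This small step was wide against the spread within the groups, with a change of 0.34 ± 0.13 (SE, interval 0.029 to 0.66), yet it did not pass over all genes (adjusted p = 0.241). Its second probe set gave 0.33. Rcor1 gave 9.88 and 9.52 in SAHA-treated cells, against 9.52 and 8.77 in control cells, so that the groups nearly touched. Its change of 0.56 (interval -0.089 to 1.20, adjusted p = 0.341) came with 0.17 and 0.064 in its further probe sets, and it was 0.18 without control replicate 2 and 0.93 without control replicate 1. With Hdac1 and Hdac2, all 4 CoREST genes were higher in both SAHA arrays, against 21.1% of all genes and 31.2% of genes above the median level, with a median change of 0.33 and no call. Hdac1 and Hdac2 are the same genes counted with NuRD and SIN3.

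The 3 NCoR genes measured besides Hdac3 were higher without overlap and without a call, with a median of 0.24. Counted with Hdac3, which overlapped, 3 of 4 were higher, with a median of 0.15. Of all genes 21.1% were higher in this way, and of genes above the median level 31.2%. Tbl1xr1, a WD40 protein that links NCoR to the proteasome when genes are switched on, gave 10.47 and 10.99 in SAHA-treated cells, against 10.45 and 10.14 in control cells (0.43, interval -0.067 to 0.94, adjusted p = 0.339). The lower SAHA array and the higher control array were almost level, and leaving out 1 array gave changes of 0.17 to 0.70. Its paralog Tbl1x gave 10.34 and 10.44 in SAHA-treated cells, against 10.18 and 10.12 in control cells (0.24, adjusted p = 0.386). Gps2, a small subunit that bridges these proteins, gave 7.69 and 7.68 in SAHA-treated cells, against 7.59 and 7.64 in control cells (0.069).

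**Figure D3:**
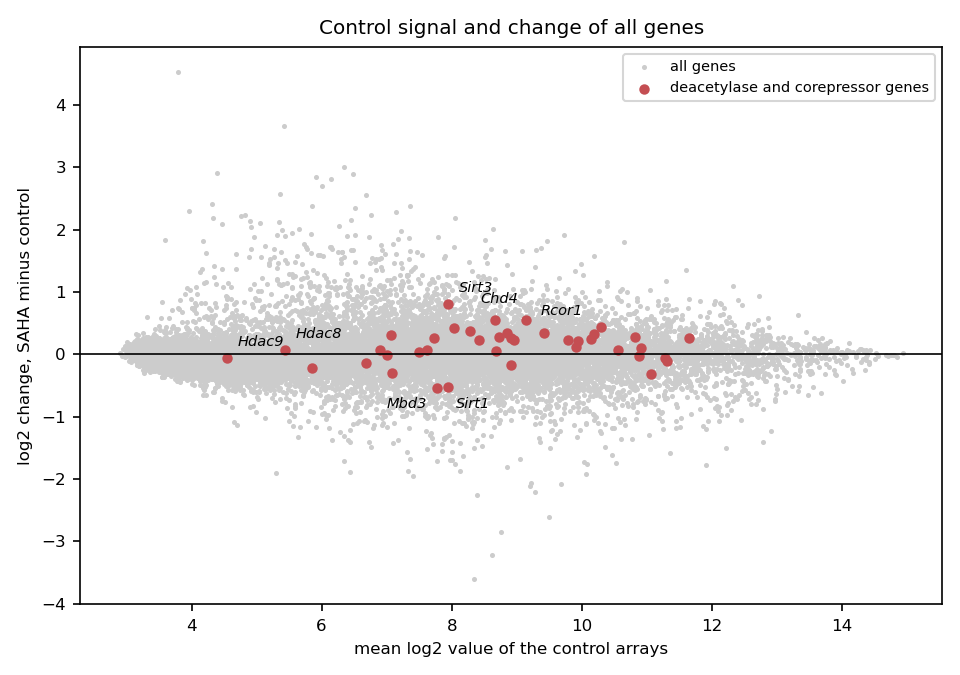
Mean log2 value of the control arrays against the log2 change, SAHA minus control, for 18194 genes (grey) and the 40 deacetylase and corepressor genes (red). The red points lie inside the band of the grey ones, mostly at control values of 7 to 12, with Sirt3 the highest at 0.80.

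Of the 40 genes 23 were read by several probe sets. All 40 together had 88 probe sets, of which 60 had a change above 0, 7 had an unadjusted p under 0.05 and none passed when each of the 45101 probe sets was tested on its own, where 0.534% of all did. For 20 genes at least 2 probe sets had no value under the 25th percentile of an array. In 10 of these the probe sets had changes of 1 sign, and in 10 of both signs. The probe sets of Kdm1a, Suds3 (0.23 and 0.27), Sin3a (0.26 to 0.39) and Hdac7 gave close values, and those of Hdac2 (0.25, 0.36 and 0.53) were spread more widely on the same side of 0. Those of Tbl1xr1 ran from -0.10 to 0.79, of Tbl1x from -0.055 to 0.53 and of Rbbp4 from -0.17 to 0.40. The probe sets of Mta1 ran from -0.20 to 0.37, of Gatad2a from 0.075 to 0.63 and of Gatad2b from -0.15 to 0.41. Hdac2, Hdac3, Sin3a, Suds3, Mta3, Rbbp4, Kdm1a and Tbl1xr1 rested on probe sets whose suffix marks probes that also match further transcripts of the same gene or of others.

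**Figure D4:**
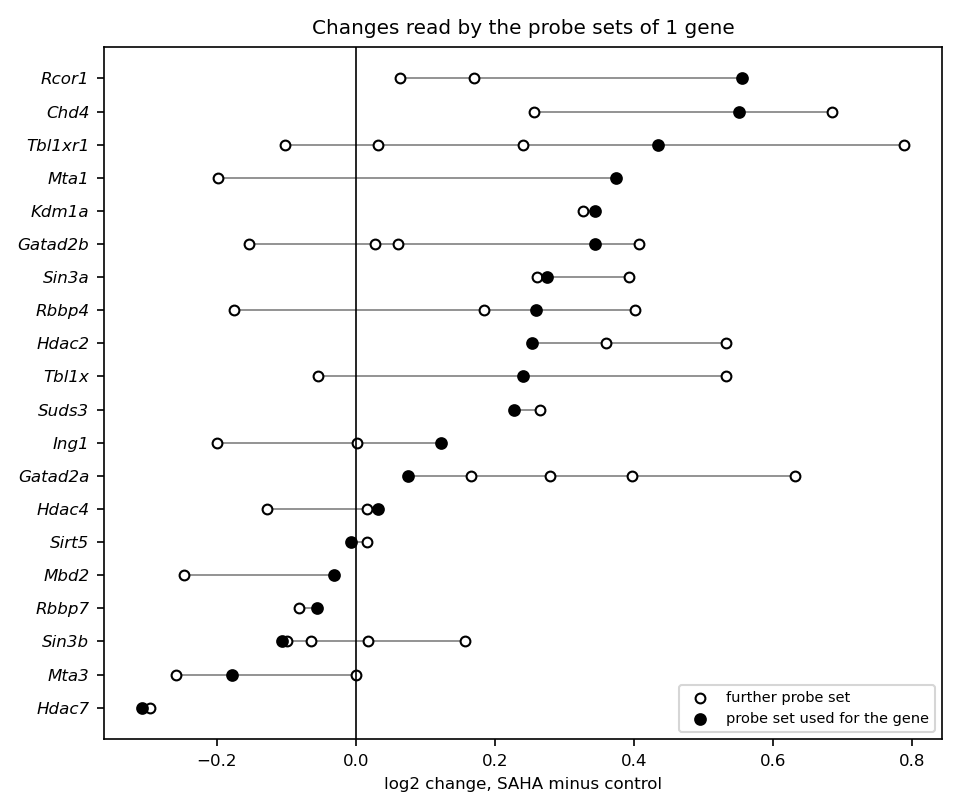
Log2 change, SAHA minus control, of every probe set without a value under the 25th percentile of its array, for the 20 genes with at least 2 such probe sets, the filled point being the one used for the gene. Kdm1a, Suds3 and Hdac7 have close points, and Tbl1xr1 spans -0.10 to 0.79.

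Other subunits and partners of these and related complexes did not pass either. Of 36 listed, 32 were measured, with a median change of 0.031, 18 above 0 and 14 below, 11 higher and 4 lower without overlap. Among genes above the median level 31.2% were higher and 25.9% lower without overlap, and among all genes 21.1% and 29.6%. Arid4b, a SIN3 subunit, came nearest. It gave 9.74 and 9.74 in SAHA-treated cells, against 8.98 and 9.08 in control cells, a change of 0.71 ± 0.14 (SE, adjusted p = 0.0589), but 0.25 with its probe sets averaged, the others giving -0.047 to 0.50. The next SIN3 value above 0 was 0.042 for Phf12, and at the other end stood Sap30l, the paralog of Sap30, at -0.36 and Sinhcaf at -0.28. Among 6 NuRD partners the range ran from -0.052 for Cdk2ap1 and -0.031 for Zfp592 to 0.28 for Zfp687 and 0.32 for Chd5. Among 10 CoREST partners Zfp217 and Hmg20b were highest (0.47 and 0.46) and Gfi1b and Rcor3 lowest (-0.31 and -0.10). These 10 include Rest, Gfi1, Gfi1b and Snai1, which bind DNA and recruit the complex. Among 6 genes of the MIER and MiDAC deacetylase complexes, Mideas and Mier1 were highest (0.56, or 0.13 with probe sets averaged, and 0.17) and Mier2 and Dnttip1 lowest (-0.12 and -0.061), and Coro2a, the 1 NCoR partner measured, was at 0.26.

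DNA-binding proteins that recruit these complexes, listed with cofactors such as Zfpm1, Bcor and Cbfa2t3, held 1 gene past the threshold among 22. Of all genes 2.23% passed in either direction and 1.52% as higher. Ikzf2, or Helios, a zinc finger protein of the Ikaros family, whose members bind NuRD, gave 9.17 and 8.88 in SAHA-treated cells, against 7.36 and 6.98 in control cells. Every SAHA value stood more than 1 log2 unit above every control value, and Ikzf2 rose 3.61-fold (log2 change 1.85 ± 0.20, SE, adjusted p = 0.0148). The call was lost without SAHA replicate 1 (change 1.70, adjusted p = 0.0882), with probe sets averaged (1.35, 0.0552) and with low values set to a floor (0.175). With the floor no gene of the array passed. A second probe set of Ikzf2 gave 2.13 and the remaining one, below the median of every array, 0.080. Zfpm1, which ties GATA factors to NuRD, was next at 0.94 ± 0.26 (SE, adjusted p = 0.140), with SAHA arrays at 7.73 and 6.98 and control arrays at 6.55 and 6.29, and leaving out 1 array gave 0.56 to 1.31. On the lower side stood Nr1d2, a nuclear receptor that recruits NCoR, at -0.62 (0.106) and Sall4 at -0.18. The 22 genes had a median of 0.12, with 13 above 0.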

How the data were processed

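RNA of 4 samples was labelled from 6 µg of total RNA for Affymetrix arrays, per the labels' protocols. The deposited values are 1 number per probe set and array, taken to be log2 because they run from 2.59 to 15.0, with array medians of 5.34 to 5.35. The submitters' processing notes name R 2.7. How probes were summarised and how arrays were normalized were steps not given in the sources used here. Arrays give no read depth, and their number limits the precision.

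Of 45101 probe sets 34958 carried 1 gene symbol, 932 several and 9211 none in the platform annotation, which can be old. Symbols were updated by Entrez identifier (34754 matched). All 5 Sap18 probe sets also match its copy Sap18b and were not used. Groups came from the sample titles. SAHA was compared with control by limma 3.58.1 in R 4.3.3 (lmFit, eBayes with trend, two-sided), without filter or covariate, over 18194 genes, with Benjamini-Hochberg adjustment, and the fit was tested on simulated data. Subunits beside the 42 genes, recruiting factors and cell markers came from fixed lists, and those named are the largest changes each way. The 42 genes and all lists were chosen with earlier results of these data known. Promoter windows are RefSeq's (GRCm38.p6), counted with Python 3.11.15. Alternatives are listed in the closing section.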

Additional observations from a re-analysis of the deposited data

How the results depend on the processing

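Of the 40 genes 1 passed, and that count was 0 after quantile normalization, with values under the 20th percentile set to that percentile, with each probe set fitted on its own, at an adjusted p under 0.01 and in every fit without 1 array (0 to 0), with 2 to 10 of the genes at an unadjusted p under 0.05 in the limma fits over genes. It was still 1 without the intensity trend, with robust spread, among genes above the median level and with probe sets averaged. The count over all genes was 405, and it was 0 with the floor (limma, 3034 at an unadjusted p under 0.05, 10 of them among the 40 genes), 226 among genes above the median level (fewer genes tested), 8 at an adjusted p under 0.01 and 31 to 529 without 1 array, 31 without SAHA replicate 1 and 90 without SAHA replicate 2. The lone array of a group was assumed to vary like the other group. With replicate number as a block (replicate block) 3616 genes passed (19.9%) and 10 of the 40. Chd4, Hdac6, Kdm1a, Rbbp4, Rcor1, Sirt2 and Sirt3 were higher and Mbd3, Sap30 and Sirt1 (adjusted p = 0.0117) lower. Arid4b, Zfp217, Hmg20b, Mideas and Zfpm1 passed there as higher and Sap30l and Nr1d2 as lower. Same-numbered arrays deviated together (r = 0.57 across genes), and the macrophage marker C1qa gave 10.88 and 12.22 in SAHA-treated cells and 10.56 and 11.86 in control cells, but nothing in the labels says that equal numbers share a culture, so the block was not used for calls. The median change of the 40 genes was 0.12 to 0.20 in the fits over genes, and 0.22 for the 37 of them above the median level. For genes named beside the 40 the same settings were applied after seeing the data. Changes near 0 turned sign in places, and the cause was not tested. With quantile normalization Hdac4 was -0.059, Sirt6 -0.018, Gps2 -0.027 and Phf12 -0.047, and with probe sets averaged Hdac4 was -0.026, Ing1 -0.050, Zfp592 0.11, Mier1 -0.012 and Dnttip1 0.080. Without 1 array Hdac3 ran over -0.14 to 0.24, Hdac4 over -0.13 to 0.19, Hdac8 over -0.071 to 0.20, Hdac9 over -0.21 to 0.077, Sirt5 over -0.13 to 0.12, Mbd2 over -0.18 to 0.12, Gatad2a over -0.057 to 0.21, Rbbp7 over -0.19 to 0.079, Phf12 over -0.033 to 0.12, Cdk2ap1 over -0.18 to 0.073, Zfp592 over -0.084 to 0.023 and Dnttip1 over -0.20 to 0.073.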

Other observations

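Psmd13, whose start region overlaps that of Sirt3, had 4 probe sets with unlike changes. The one used gave 0.31 on the log2 scale, a second 0.23, another 0.96 and the last -0.35, and none passed over all 45101 probe sets.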
